A study of Homo sapiens with 20 samples.

Results

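ADAMTS1 and 7 of its relatives, ADAMTS3, ADAMTS5, ADAMTS6, ADAMTS7, ADAMTS9, ADAMTS10 and ADAMTS19, were followed in HEK293-GR cells. ADAMTS1 was taken up because it was among the most strongly lowered genes after dexamethasone, and the relatives because they belong to the same protease family. They are 8 of the 27896 gene symbols in the count table, found by their symbols, with 1 transcript, the one with the most reads, standing for each. Of the 8, 7 had enough reads to be tested among 16432 genes, and ADAMTS5 did not.

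HEK293-GR is derived from HEK293, a line of human embryonic kidney cells, and carries a constitutively expressed glucocorticoid receptor (GR), so the receptor is not at its native level, and the labels do not say whether the line is 1 clone. RNA was compared in 4 groups of 4 libraries: siBCOR dex, siBCOR vehicle, siNON dex and siNON vehicle. siBCOR cells received an siRNA pool that targets the corepressor BCOR, at 20 nM for 72 h, and siNON cells a non-targeting pool, and with 1 pool any other targets of it cannot be told apart from BCOR. Dex cells received the synthetic glucocorticoid dexamethasone at 100 nM for 6 h and vehicle cells ethanol, all in steroid-depleted medium for 48 h. BCOR binding came from ChIP-seq after 1 h of dex or vehicle, with 2 libraries each, in cells whose labels name no siRNA.

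ADAMTS proteins are secreted zinc metalloproteases with thrombospondin type I repeats. They are made as inactive precursors, are cut by furin-type convertases, act on the matrix around cells and are held in check mainly by the inhibitor TIMP3. ADAMTS1, ADAMTS5 and ADAMTS9 cut large proteoglycans such as versican, ADAMTS3 removes the amino-terminal propeptide of procollagens, ADAMTS7 cuts cartilage oligomeric matrix protein, and ADAMTS6 and ADAMTS10 are a pair linked to fibrillin microfibrils. Less is known of ADAMTS19, whose loss has been tied to heart valve disease.

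In these cells ADAMTS1 was by far the most abundant of the 8, and it went opposite ways with the treatments: it was about 9-fold lower after dexamethasone and about 1.5-fold higher after BCOR depletion, in vehicle and in hormone alike. ADAMTS9, a close relative with overlapping substrates, rose with hormone, and ADAMTS3 fell moderately. ADAMTS19, the next most abundant member in the vehicle groups, and the low ADAMTS6 were called higher with depletion in dexamethasone, calls that did not hold with every library left out in turn. ADAMTS7 and ADAMTS10 were called in no comparison, and ADAMTS5 had too few reads to test. No BCOR peak lay within 100 kb of the ADAMTS1 start, while ADAMTS3, ADAMTS9 and ADAMTS10 had one within 2 kb of theirs.

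Reads over the chosen transcripts ran from 18580294 to 28054808 per library, and levels are given as reads scaled to library size (CPM), on which 1 read is worth about 0.0418 to 0.0461. BCOR averaged 22.4 ± 0.796 CPM in siBCOR vehicle cells and 196 ± 29.4 CPM in siNON vehicle cells, 8.77-fold lower. It averaged 14.8 ± 0.706 CPM in siBCOR dex cells and 93.8 ± 15.9 CPM in siNON dex cells (SD, n = 4), 6.36-fold lower. BCOR was therefore already 2.09-fold lower in siNON dex than in siNON vehicle cells. All 8 listed HEK293-type markers were expressed, with a summed level of 1160 to 1226 CPM in siBCOR dex, 1204 to 1368 in siBCOR vehicle, 1406 to 1503 in siNON dex and 1316 to 1569 in siNON vehicle libraries. Endothelial markers summed to 2.25 to 4.54 CPM and fibroblast markers to 26 to 50.1 CPM, of which COL1A1 gave 22.5 to 44.1. Of 7 immune markers, CD68 gave nearly all of a sum that was 9.41 to 13.2 CPM in siBCOR and 12.7 to 16.3 CPM in siNON libraries, MS4A1 was at 0, and the part of these shifts in the results was not tested. The libraries siNON dex 4 and siNON vehicle 3 stood apart from their groups, and their deviations from the group means were alike (r = 0.654). The deviations of siBCOR vehicle 2 ran the other way, with r = -0.643 to siNON vehicle 3 and -0.55 to siNON dex 4. The number of genes whose hormone response differed between siBCOR and siNON cells was 17 with all libraries. It was 2429 without siNON dex 4, 6 without siNON vehicle 3 and 1771 without both. Of the single libraries left out, only siNON dex 4 raised it. The changes below are from bulk RNA, in which fewer cells with a transcript and less transcript per cell cannot be told apart.

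RefSeq promoters, windows of 300 bases around a start site, were at hand for 5 of the 8 genes: ADAMTS3, ADAMTS6, ADAMTS7, ADAMTS10 and ADAMTS19. Below, 3 are shown 5′ to 3′ with every CG dinucleotide in capitals, because 2 of them have a BCOR peak near the start and the other does not, and because they differ in CG content.
ADAMTS3 (GRCh38.p14, chr4:72569172-72569471, minus strand): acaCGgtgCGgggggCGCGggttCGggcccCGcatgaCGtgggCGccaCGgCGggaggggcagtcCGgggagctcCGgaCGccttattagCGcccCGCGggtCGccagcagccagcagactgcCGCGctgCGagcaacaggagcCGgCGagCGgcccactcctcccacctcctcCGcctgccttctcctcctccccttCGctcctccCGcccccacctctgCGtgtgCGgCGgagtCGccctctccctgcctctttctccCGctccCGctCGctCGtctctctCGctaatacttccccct
ADAMTS10 (GRCh38.p14, chr19:8610666-8610965, minus strand): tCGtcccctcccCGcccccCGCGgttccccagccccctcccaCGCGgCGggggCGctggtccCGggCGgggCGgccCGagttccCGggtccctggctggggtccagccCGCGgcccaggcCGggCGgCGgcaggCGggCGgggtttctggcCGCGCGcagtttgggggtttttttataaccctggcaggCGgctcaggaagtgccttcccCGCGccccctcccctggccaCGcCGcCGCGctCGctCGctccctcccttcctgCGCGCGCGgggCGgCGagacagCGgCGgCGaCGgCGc
ADAMTS6 (GRCh38.p14, chr5:65481871-65482170, minus strand): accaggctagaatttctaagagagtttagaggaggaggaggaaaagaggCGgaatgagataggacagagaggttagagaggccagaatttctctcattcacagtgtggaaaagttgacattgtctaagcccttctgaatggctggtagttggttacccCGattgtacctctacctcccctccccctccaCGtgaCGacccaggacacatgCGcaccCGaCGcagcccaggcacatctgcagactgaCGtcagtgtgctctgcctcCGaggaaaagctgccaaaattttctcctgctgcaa
The ADAMTS3 window holds 35 CG dinucleotides and that of the first ADAMTS10 start 43, more than 85.9% and 95% of the 35116 human promoters in the table, whose median is 14. The ADAMTS6 window holds 9, more than 41.6% of promoters. The letters of 4 motifs were looked for on both strands: the glucocorticoid receptor's single arm AGAACA, the full glucocorticoid response element made of that arm and its reverse complement with 3 free bases between them, the AP-1 site TGANTCA and the cyclic AMP response element TGACGTCA. The arm lies inside the full element, and the other pairs can overlap by a few letters. None of the members' windows holds the full element, which 0.00285% of all promoters hold. ADAMTS19 has 1 single arm, found in 14.8% of promoters, and ADAMTS6 has 1 cyclic AMP response element, found in 1.85% of promoters. These are letter matches in short windows, in a later genome build than the peaks, and were not laid over them.

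ADAMTS1 (NM_006988, hg19 chromosome 21, 28208606 to 28217728, minus strand, 4640 bases of exon) had 2880, 2891, 2386 and 1867 reads in siBCOR dex libraries 1 to 4, and 24639, 19670, 18464 and 20048 reads in siBCOR vehicle libraries. It had 1607, 1680, 1651 and 1152 reads in siNON dex libraries, and 16919, 14434, 13365 and 13523 reads in siNON vehicle libraries. Scaled to library size this was 109.1, 102, 109 and 97.4 CPM in siBCOR dex, against 972, 948.5, 913 and 930.1 CPM in siBCOR vehicle. The siNON libraries held 71.95, 72.61, 70.31 and 64.58 CPM with dex, against 673.6, 698.2, 565.5 and 610.5 CPM with vehicle. The 4 groups did not overlap: every siNON dex library was below every siBCOR dex library, and both were far below the vehicle libraries, with siBCOR vehicle on top.

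With hormone ADAMTS1 was 9.01-fold lower in siBCOR cells (log2 fold change -3.17 ± 0.0708, SE) and 9.11-fold lower in siNON cells (-3.19 ± 0.0712). In each it had the 2nd lowest log2 fold change of the 16432 genes. These values chose the gene and are given without a test. The choice was by the hormone response and not by BCOR depletion, though earlier results of these data were known. The depletion comparisons also reuse the libraries whose hormone response chose the gene. In vehicle ADAMTS1 averaged 941 ± 25.3 CPM in siBCOR cells and 637 ± 60.3 CPM in siNON cells (SD, n = 4), a rise of 1.48-fold (log2 fold change 0.56 ± 0.0651, adjusted p = 2.998e-05, edgeR's quasi-likelihood test with Benjamini-Hochberg adjustment over all genes). In dexamethasone it averaged 104 ± 5.71 CPM in siBCOR cells and 69.9 ± 3.65 CPM in siNON cells, a rise of 1.49-fold (0.58 ± 0.0667, adjusted p = 1.314e-05). The rise was called under all 24 alternatives in each comparison, at 0.46 to 0.61 in vehicle and 0.50 to 0.61 in dexamethasone. The hormone's log2 fold change differed by 0.02 ± 0.0927 between siBCOR and siNON cells (edgeR, adjusted p = 0.929), a difference that was not called.

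**Figure D1:**
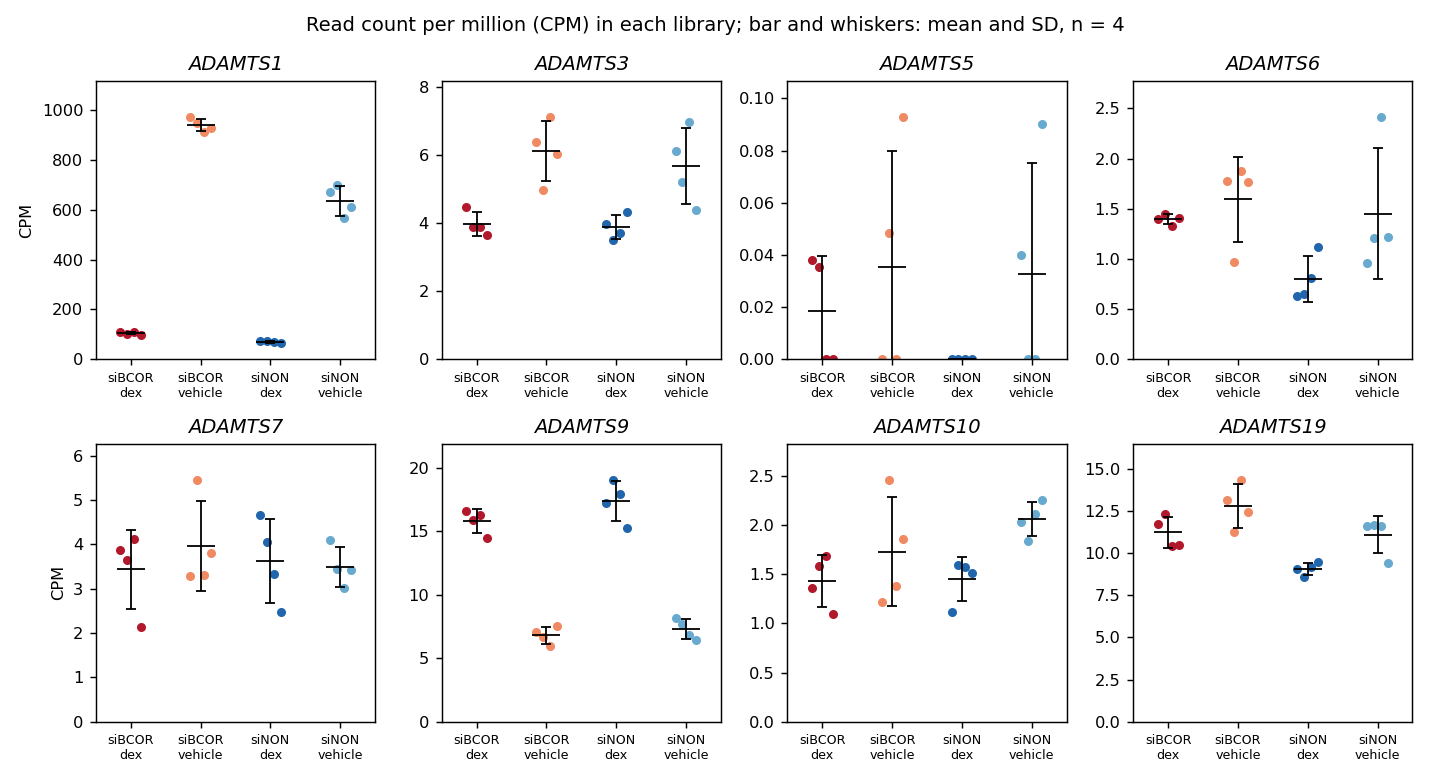
Scaled read level (CPM, vertical axes, each with its own scale) of the 8 genes in the 16 libraries; points are libraries, bars and whiskers the mean and SD of 4. ADAMTS1 separates all 4 groups, ADAMTS9 is high in both dex groups, and ADAMTS5 lies at 0 to 2 reads per library.

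ADAMTS9, the other member of the proteoglycan-cutting branch with usable reads (NM_182920, hg19 chromosome 3, 64501331 to 64673365, minus strand), went the other way with hormone. It had 16.6, 15.9, 16.3 and 14.5 CPM in siBCOR dex libraries, against 7.1, 6.65, 5.93 and 7.56 CPM in siBCOR vehicle libraries. With siNON it had 17.2, 19.1, 18 and 15.3 CPM with dex, against 8.2, 7.74, 6.81 and 6.46 CPM with vehicle. All 8 dex libraries lay above all 8 vehicle libraries. ADAMTS9 rose 2.32-fold in siBCOR cells (log2 fold change 1.21 ± 0.099, edgeR, adjusted p = 5.689e-08) and 2.38-fold in siNON cells (1.25 ± 0.0981, adjusted p = 2.75e-08), and both calls held under all 24 alternatives. Depletion did not move it past the threshold, at -0.10 ± 0.103 in vehicle (adjusted p = 0.571) and -0.14 ± 0.093 in dexamethasone (adjusted p = 0.246). Without siNON dex 4 and siNON vehicle 3 the value in dexamethasone was -0.23 and was called (adjusted p = 0.0394). Counting did not separate strands, and 2 antisense genes overlap ADAMTS9, but ADAMTS9-AS1 had 0 to 13 reads per library and ADAMTS9-AS2 0 to 3, against 120 to 451 for ADAMTS9.

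ADAMTS5, the aggrecan-cutting enzyme whose gene neighbours ADAMTS1 on chromosome 21, was close to absent. It had 2 reads in the siBCOR dex group, 3 in siBCOR vehicle, 0 in siNON dex and 3 in siNON vehicle, 8 in all. A count of 0 over the siNON dex group allows a level of up to 0.0346 CPM, which is 3 reads and covers counting error only. Its response could not be measured at this depth.

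ADAMTS3 (NM_014243, hg19 chromosome 4, 73146686 to 73434516, minus strand), the procollagen propeptidase that also takes part in the activation of VEGFC, fell with hormone. It had 4.47, 3.88, 3.88 and 3.65 CPM in siBCOR dex libraries, against 6.39, 4.97, 7.12 and 6.03 CPM in siBCOR vehicle libraries. The siNON libraries had 3.99, 3.5, 3.71 and 4.32 CPM with dex, against 6.13, 5.22, 6.98 and 4.38 CPM with vehicle. Within each siRNA the dex libraries lay below the vehicle libraries, in siNON cells by a narrow margin. The fall was 1.54-fold in siBCOR cells (log2 fold change -0.62 ± 0.139, edgeR, adjusted p = 0.00343) and 1.47-fold in siNON cells (-0.56 ± 0.142, adjusted p = 0.00869), called under all 24 alternatives. Depletion left it at 0.11 ± 0.135 in vehicle (adjusted p = 0.652) and 0.05 ± 0.147 in dexamethasone (adjusted p = 0.824), neither called.

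ADAMTS7 (NM_014272, hg19 chromosome 15, 79051545 to 79103805, minus strand) was called in no comparison. It had 3.86, 3.64, 4.11 and 2.14 CPM in siBCOR dex libraries, against 3.27, 5.45, 3.31 and 3.8 CPM in siBCOR vehicle libraries. With siNON there were 4.66, 4.06, 3.32 and 2.47 CPM with dex, against 4.1, 3.44, 3 and 3.43 CPM with vehicle, so that the groups overlapped throughout. Its log2 fold changes ranged from -0.18 ± 0.212 with hormone in siBCOR cells to 0.17 ± 0.213 with depletion in vehicle. A copy of the gene, ADAMTS7P1, had 1 read in all, and reads that fit both could not be separated.

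The pair ADAMTS6 and ADAMTS10 was low. ADAMTS6 (NM_197941, hg19 chromosome 5, 64444563 to 64777747, minus strand), with 14 to 57 reads per library, had 1.4, 1.45, 1.32 and 1.41 CPM in siBCOR dex libraries, against 1.78, 0.964, 1.88 and 1.76 CPM in siBCOR vehicle libraries. Its siNON values were 0.627, 0.648, 0.809 and 1.12 CPM with dex, against 0.956, 1.21, 2.41 and 1.22 CPM with vehicle. The siNON dex libraries lay below all siBCOR dex libraries and overlapped the siNON vehicle libraries. With hormone ADAMTS6 fell in siNON cells (log2 fold change -0.88 ± 0.295, edgeR, adjusted p = 0.0454) and was not called in siBCOR cells (-0.20 ± 0.257, adjusted p = 0.616), and the difference between the 2 responses was not called (0.68 ± 0.393, adjusted p = 0.314). With depletion it rose in dexamethasone (0.83 ± 0.295, adjusted p = 0.0365) and was not called in vehicle (0.14 ± 0.258, adjusted p = 0.769). Neither call was firm. The siNON call was lost, at adjusted p = 0.0503 to 0.175 and a log2 fold change of -0.95 to -0.53, on leaving out any single 1 of 12 libraries, which were siBCOR dex 1 to 4, siBCOR vehicle 1, 3 and 4, siNON dex 1 to 3, and siNON vehicle 2 and 3. The rise in dexamethasone was lost, at adjusted p = 0.0542 to 0.0999 and 0.73 to 0.85, without any 1 of siBCOR dex 1 to 4 and siNON dex 1 to 3.

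ADAMTS10 (NM_030957, hg19 chromosome 19, 8645124 to 8675620, minus strand), with 21 to 51 reads per library, had 1.36, 1.59, 1.69 and 1.1 CPM in siBCOR dex libraries, against 1.22, 2.46, 1.39 and 1.86 CPM in siBCOR vehicle libraries. In siNON cells it had 1.12, 1.6, 1.58 and 1.51 CPM with dex, against 2.03, 1.84, 2.12 and 2.26 CPM with vehicle, with no overlap. It was called in none of the comparisons. Its log2 fold change with hormone was -0.25 ± 0.202 in siBCOR cells (edgeR, adjusted p = 0.403) and -0.51 ± 0.198 in siNON cells (adjusted p = 0.0886), the siNON value being called at adjusted p = 0.0405 without siBCOR vehicle 2.

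ADAMTS19 (NM_133638, hg19 chromosome 5, 128795958 to 129074376, plus strand) had 11.7, 12.3, 10.4 and 10.5 CPM in siBCOR dex libraries, against 13.1, 11.3, 14.3 and 12.4 CPM in siBCOR vehicle libraries. In siNON cells it had 9.09, 8.6, 9.16 and 9.47 CPM with dex, against 11.6, 11.7, 11.6 and 9.44 CPM with vehicle. The siNON dex libraries were below all siBCOR dex libraries, and siNON vehicle 4 lay among the siNON dex libraries. With depletion ADAMTS19 rose 1.24-fold in dexamethasone (log2 fold change 0.31 ± 0.0943, edgeR, adjusted p = 0.0173), a call lost without siBCOR dex 2 or siNON dex 2 (adjusted p = 0.0547 to 0.0562), and was not called in vehicle (0.21 ± 0.0925, adjusted p = 0.135). With hormone it fell in siNON cells (-0.29 ± 0.0946, adjusted p = 0.0406) and was not called in siBCOR cells (-0.19 ± 0.0922, adjusted p = 0.159). The siNON call was lost, at adjusted p = 0.0508 to 0.115, without any 1 of siBCOR dex 1, siBCOR vehicle 4, siNON dex 1 to 3 and siNON vehicle 1 to 3. The overlapping antisense gene ADAMTS19-AS1 had 11 to 34 reads per library, against 169 to 349 for ADAMTS19, and reads of the 2 strands cannot be told apart.

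**Figure D2:**
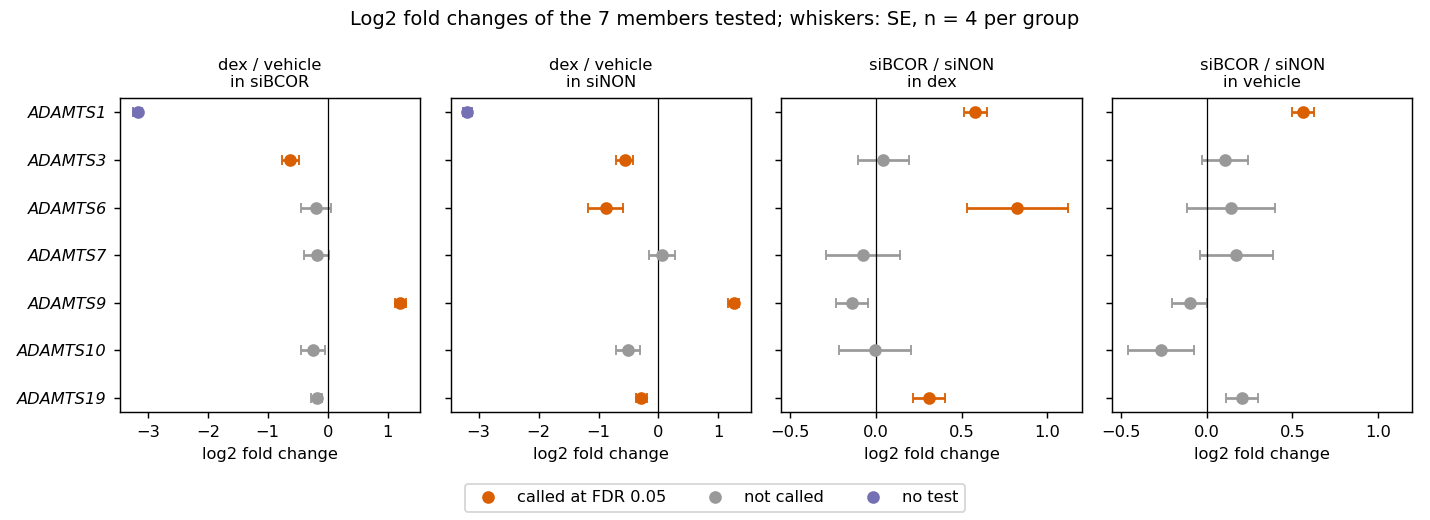
Log2 fold changes (horizontal axes) with SE of the 7 genes tested, in siBCOR and siNON cells for hormone (left pair) and in dex and vehicle for BCOR depletion (right pair). ADAMTS1 stands at -3.17 and -3.19 with hormone (no test, since it was chosen for this) and at 0.58 and 0.56 with depletion, and ADAMTS9 at 1.21 and 1.25 with hormone.

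Counted together, 2 of the 6 tested relatives changed with hormone in siBCOR cells, 1 up (10.4% of all 16432 genes were called higher) and 1 down (12.5% were called lower), against a background of 23% of all genes called either way. In siNON cells 4 of the 6 changed, 1 up (background 10.6%) and 3 down (background 8.59%), 19.2% of all genes being called either way, and 2 of the 4 were the weakly held calls of ADAMTS6 and ADAMTS19. The relatives' median log2 fold change was -0.19 in siBCOR cells and -0.40 in siNON cells, beside 0.00 for all genes in both. Depletion changed 1 of 7 genes in vehicle, ADAMTS1, which rose, with 17% of all genes called and 8.82% called higher, and 3 of 7 in dexamethasone, all higher, with 39.2% of all genes called and 20.4% called higher. The share in dexamethasone is near the background, and without siBCOR dex 2 or siNON dex 2 the count there was 1. The libraries of the 2 groups did not overlap for 2 of 6 relatives with hormone in siBCOR cells (30.7% of all genes) and 3 of 6 in siNON cells (19.9%), and for 1 of 7 genes with depletion in vehicle (18%) and 3 of 7 in dexamethasone (34.2%). No member was called for a difference in hormone response (0 of 7 by edgeR and 0 by DESeq2). Of all genes, 0.103% were called by edgeR, and 81 of 16432 by DESeq2. At an unadjusted p under 0.05 by edgeR there were 0 of the 7 members, beside 3129 of the 16432 genes.

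Levels between genes were compared per kilobase of exon. In siBCOR vehicle cells ADAMTS1 stood at 203 CPM per kb and ADAMTS19, the next, at 2.46. In siNON vehicle cells ADAMTS1 stood at 137 CPM per kb, followed by ADAMTS19 at 2.13, ADAMTS9 at 1, ADAMTS3 at 0.98, ADAMTS7 at 0.636, ADAMTS10 at 0.486, ADAMTS6 at 0.199 and ADAMTS5 at 0.00337, and of these neighbours only ADAMTS9 and ADAMTS3 overlapped in their libraries. In siBCOR dex cells the order was ADAMTS1 at 22.5, ADAMTS9 at 2.18, ADAMTS19 at 2.16 (overlapping), ADAMTS3 at 0.685 and ADAMTS7 at 0.625 (overlapping). In siNON dex cells it was ADAMTS1 at 15.1, ADAMTS9 at 2.39, ADAMTS19 at 1.74, ADAMTS3 at 0.669 and ADAMTS7 at 0.66, only the last pair overlapping. By this level ADAMTS1 ranked 3525th of 16432 genes in siBCOR dex, 287th in siBCOR vehicle, 4912th in siNON dex and 505th in siNON vehicle cells.

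Set against all 19 ADAMTS genes in the table, ADAMTS1 made up 46.1% ± 0.862 of the family's summed level in siBCOR dex cells and 92% ± 0.283 in siBCOR vehicle cells. It made up 31.7% ± 0.519 in siNON dex cells and 87.8% ± 0.831 in siNON vehicle cells (SD, n = 4). As ADAMTS1 was chosen for its fall with hormone, its lower share with dex restates that choice. The fall alone also raises the shares of the other genes. ADAMTS8, another proteoglycan-cutting enzyme, took 23.1% in siBCOR dex and 1.29% in siBCOR vehicle cells, and 35.1% in siNON dex and 2.13% in siNON vehicle cells. In siNON dex cells ADAMTS8 thus held a larger mean share than ADAMTS1, and its lowest library (33%) was above the highest of ADAMTS1 (32.4%). The summed level was 48.9 ± 2.95 CPM per kb in siBCOR dex and 220.3 ± 5.65 in siBCOR vehicle cells, and 47.5 ± 2.42 in siNON dex and 156 ± 13.5 in siNON vehicle cells. Without ADAMTS1 the sum of the other 18 was higher with dex than with vehicle, at 26.4 ± 1.83 against 17.5 ± 0.638 in siBCOR cells and 32.5 ± 1.69 against 19 ± 0.844 in siNON cells. ADAMTS8 carried this difference: without it as well, the sum of the other 17 was 15.1 ± 0.864 with dex against 14.7 ± 0.203 with vehicle in siBCOR cells, and 15.8 ± 0.975 against 15.7 ± 0.731 in siNON cells, with overlapping libraries in both.

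**Figure D3:**
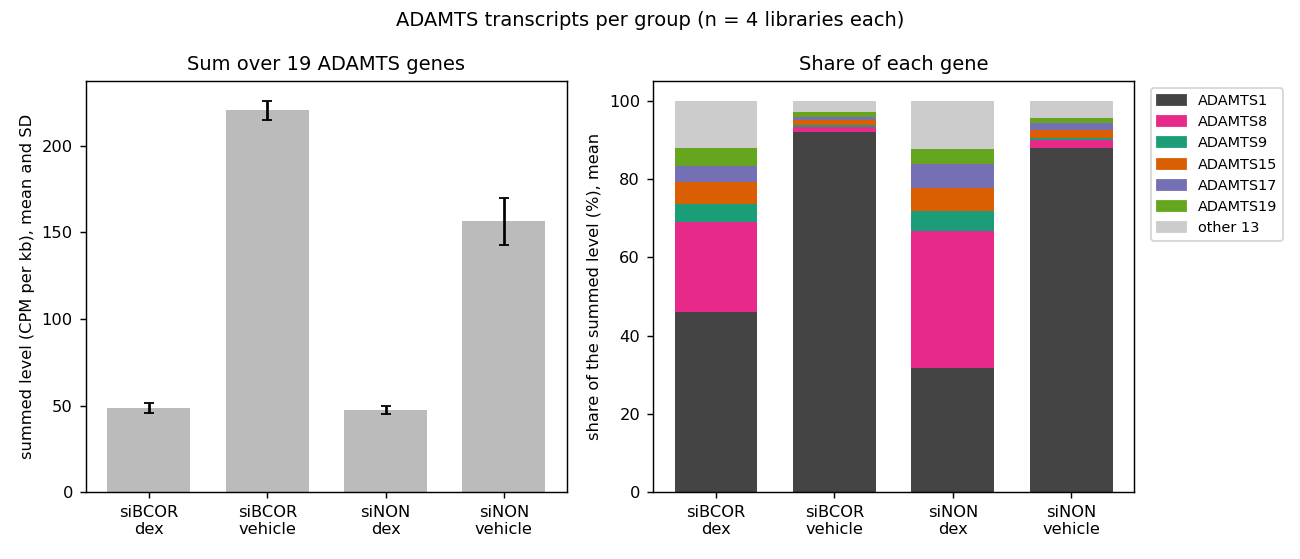
Summed level of 19 ADAMTS genes (left, CPM per kb, mean and SD of 4 libraries) and the mean share of each gene in it (right, percent) in the 4 groups. ADAMTS1 holds 92% and 87.8% in the vehicle groups and 46.1% and 31.7% in the dex groups, where ADAMTS8 holds 23.1% and 35.1%. ADAMTS1 was chosen for its fall with hormone, which alone raises the other shares.

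Of the 11 other ADAMTS genes, 10 were tested. ADAMTS8 had 44.8, 41.7, 51.4 and 42.6 CPM in siBCOR dex libraries, against 10.5, 14.3, 10.4 and 10.2 CPM in siBCOR vehicle libraries. The siNON levels were 63.4, 73.1, 66.3 and 64.1 CPM with dex, against 14.5, 13.1, 11.7 and 13.8 CPM with vehicle. It rose with hormone by a log2 fold change of 1.99 ± 0.108 in siBCOR cells (edgeR, adjusted p = 2.628e-10) and 2.33 ± 0.108 in siNON cells (adjusted p = 2.222e-11). In dexamethasone it was lower after depletion (-0.56 ± 0.101, adjusted p = 0.000645), the opposite direction to ADAMTS1. ADAMTS18, with 11 to 92 reads per library, fell with hormone (-1.16 ± 0.29 in siBCOR and -1.68 ± 0.254 in siNON cells). Its siBCOR libraries overlapped. ADAMTS14, like ADAMTS3 a procollagen propeptidase, rose in siBCOR cells (1.25 ± 0.241), at a low level of 6 to 26 reads per library. ADAMTS17, the closest relative of ADAMTS19, was lower after depletion (-0.64 ± 0.098 in vehicle and -0.52 ± 0.0968 in dexamethasone), as was ADAMTS2 (-0.53 ± 0.158 in vehicle, adjusted p = 0.0273, and -0.80 ± 0.163 in dexamethasone, adjusted p = 0.00165). The vehicle call of ADAMTS2 was lost (adjusted p = 0.0685 to 0.1) without siBCOR vehicle 1 or 3 or siNON vehicle 1 or 2. With depletion 1 of the 10, ADAMTS13, was higher and 3 were lower in vehicle (8.82% and 8.19% of all genes), and 0 were higher and 3 lower in dexamethasone (20.4% and 18.7% of all genes). Without siBCOR vehicle 4, siNON vehicle 1 or siNON vehicle 3 no gene was higher in vehicle. In dexamethasone 1 was higher without any 1 of siBCOR dex 2, siBCOR vehicle 2, siNON dex 4 and siNON vehicle 3 and 4, and without both libraries that stood apart 5 were lower in vehicle. With hormone 3 of the 10 rose and 1 fell in siBCOR cells (10.4% and 12.5% of all genes), and 1 rose and 2 fell in siNON cells (10.6% and 8.59%). Of these the call of ADAMTS20 was lost without any 1 of 9 libraries (adjusted p = 0.0507 to 0.142), which were siBCOR dex 1, 3 and 4, siBCOR vehicle 3 and 4, siNON dex 1 to 3 and siNON vehicle 3.

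The ADAMTS-like proteins carry the same ancillary domains without a protease. Of 8 listed, 6 were tested. With hormone 2 rose in siBCOR cells (10.4% of all genes) and 3 in siNON cells (10.6% of all genes). These counts were 1 in siBCOR cells without siBCOR dex 1 or 3 or siBCOR vehicle 1 or 4, and 1 in siNON cells without siNON dex 1 or siNON vehicle 3 or 4. ADAMTSL1 rose in both, by 1.94 ± 0.131 in siBCOR cells (edgeR, adjusted p = 4.693e-09) and 1.81 ± 0.132 in siNON cells (adjusted p = 1.061e-08). Its level was 6.52 to 7.62 CPM in siBCOR dex and 1.29 to 2.22 CPM in siBCOR vehicle libraries, and 5.72 to 6.99 CPM in siNON dex and 1.69 to 2.12 CPM in siNON vehicle libraries.

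Known substrates of the family moved both ways with hormone. Of 23 listed, 19 were tested: 4 rose and 7 fell in siBCOR cells (10.4% and 12.5% of all genes), and 4 rose and 3 fell in siNON cells (10.6% and 8.59% of all genes), with a median log2 fold change of -0.31 and -0.04. The 4 that rose in both were THBS1, COMP, HSPG2 and ACAN, which encode thrombospondin-1, cartilage oligomeric matrix protein and the proteoglycans perlecan and aggrecan. Without siNON dex 4, 7 rose in siNON cells, and 1 fell without siNON dex 1, siNON dex 3, siNON vehicle 1 or siNON vehicle 4. VCAN, which encodes versican, the substrate most often named for ADAMTS1 and ADAMTS9, fell. It had 64.7, 60.1, 66.5 and 61.2 CPM in siBCOR dex libraries, against 108.1, 89.4, 106.3 and 97.8 CPM in siBCOR vehicle libraries. Its siNON levels were 57, 52.5, 51.4 and 63.2 CPM with dex, against 116, 118.9, 140 and 90.8 CPM with vehicle. Every dex library was below every vehicle library, with log2 fold changes of -0.67 ± 0.105 in siBCOR cells (edgeR, adjusted p = 0.000142) and -1.06 ± 0.106 in siNON cells (adjusted p = 7.156e-07). THBS1 rose by 1.33 ± 0.139 in siBCOR and 1.57 ± 0.138 in siNON cells, and HSPG2 by 1.23 ± 0.231 and 1.60 ± 0.232.

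With depletion 10 of the 19 substrates fell and 0 rose in dexamethasone (18.7% and 20.4% of all genes), with a median log2 fold change of -0.40 beside 0.02 for all genes. SDC4, which encodes the cell surface proteoglycan syndecan-4 (-0.78 ± 0.0757, edgeR, adjusted p = 2.387e-06), and the fibrillin genes FBN1 (-0.65 ± 0.0979, adjusted p = 0.000174) and FBN2 (-0.73 ± 0.13, adjusted p = 0.000738) had the smallest adjusted p. The count was 4 without siBCOR dex 4 or siNON dex 1, 5 without siNON dex 3 and 17 without siNON dex 4. In vehicle 3 fell (8.19% of all genes), and 5 without siNON dex 4 or siNON vehicle 3. VCAN was called in neither (-0.21 ± 0.104 in vehicle, adjusted p = 0.175, and 0.17 ± 0.106 in dexamethasone, adjusted p = 0.197).

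Of 9 genes listed as inhibitors, 7 were tested, and none rose. Among them PAPPA encodes a metalloprotease that cuts binding proteins of insulin-like growth factors and is no inhibitor. TIMP3, the main tissue inhibitor of this family, fell with hormone by 0.57 on the log2 scale in siBCOR cells (SE 0.0776, edgeR, adjusted p = 2.852e-05) and by 0.32 in siNON cells (SE 0.0774, adjusted p = 0.00681). In all 5 of the 7 fell in siBCOR cells (12.5% of all genes; 3 without siBCOR dex 4) and 3 in siNON cells (8.59% of all genes), namely TIMP3, the protease inhibitor gene SERPINE2 and PAPPA, which was among the 5 too. With depletion RECK, a membrane-anchored inhibitor, was lower in vehicle (-0.40 ± 0.0886) and in dexamethasone (-0.42 ± 0.0872), where 3 of the 7 (TIMP1, RECK and PAPPA) were lower (18.7% of all genes), and 6 without siNON dex 4. Of 10 genes of processing, modification and uptake, all tested, 1 rose and 3 fell with hormone in siBCOR cells (10.4% and 12.5% of all genes). In siNON cells 2 rose and 2 fell (10.6% and 8.59% of all genes). The 3 that fell in siBCOR cells were 1 without siBCOR dex 1, siBCOR dex 4 or siBCOR vehicle 2. In siNON cells 4 rose without siNON dex 4. There 1 fell without any 1 of siNON dex 1 and 4 and siNON vehicle 1, 2 and 4. PCSK5, a convertase of the furin family, rose with hormone (0.74 ± 0.073 in siBCOR and 0.71 ± 0.0732 in siNON cells) and LRP2, an endocytic receptor, fell (-0.81 ± 0.087 and -0.67 ± 0.0868). After depletion 4 of the 10 fell in dexamethasone (18.7% of all genes). They included PCSK6 (-0.58 ± 0.0634), SDC1 (-0.71 ± 0.0955) and LRP1 (1.99-fold lower, SE 0.182 on the log2 scale), the receptor that takes up ADAMTS5 and other family members.

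**Figure D4:**
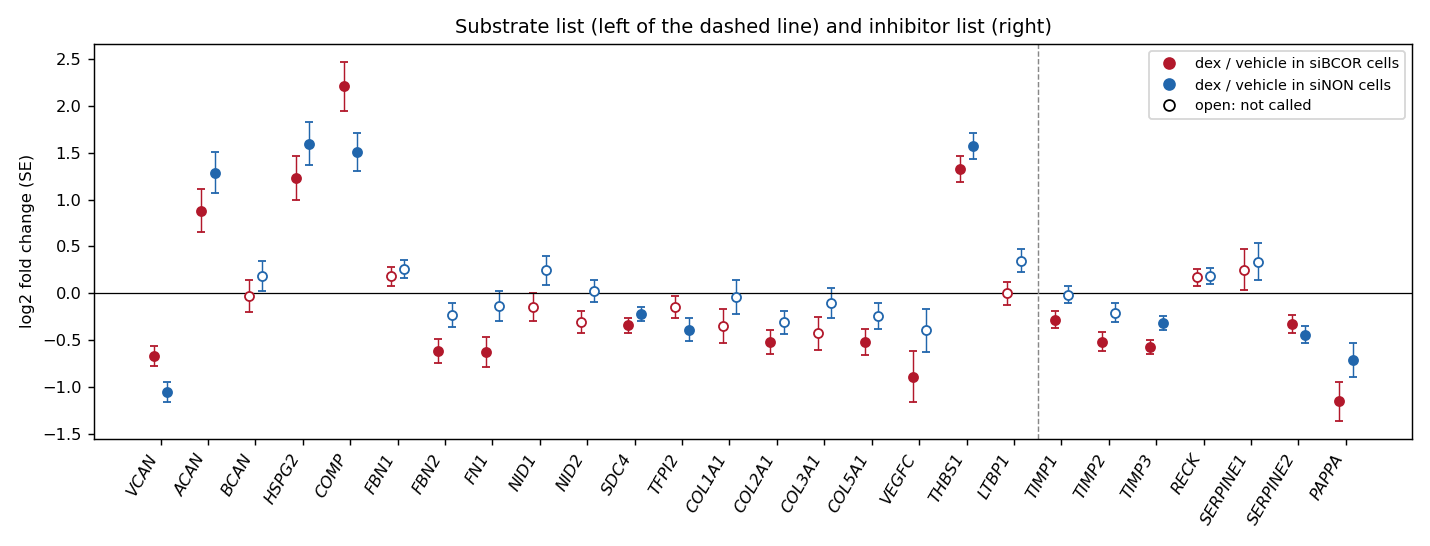
Log2 fold changes with SE (vertical axis) after hormone for the tested substrate genes (left of the dashed line) and the genes listed as inhibitors (right), in siBCOR cells (red) and siNON cells (blue); open symbols were not called. VCAN lies at -0.67 and -1.06, while THBS1, COMP, HSPG2 and ACAN lie above 0 in both.

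Other metalloproteases act at the cell surface and in the matrix. Of 10 tested matrix metalloproteinases, 2 rose and 1 fell with hormone in siBCOR cells (10.4% and 12.5% of all genes). In siNON cells 1 rose (10.6% of all genes). MMP17, a membrane-bound enzyme, rose in both (1.62 ± 0.268 and 1.46 ± 0.208) and was lower after depletion (-1.39 ± 0.275 in vehicle and -1.23 ± 0.203 in dexamethasone). With depletion 1 of these 10 rose and 1 fell in vehicle (8.82% and 8.19% of all genes). In dexamethasone 0 rose and 2 fell (20.4% and 18.7% of all genes). The rise in vehicle, that of MMP11, was lost without siBCOR vehicle 2 or 4 or siNON vehicle 1 or 3. Of 10 tested ADAM proteases, 1 rose and 3 fell with hormone in siBCOR cells (10.4% and 12.5% of all genes). In siNON cells 1 fell (8.59% of all genes). ADAM19 fell in both (-0.84 ± 0.101 in siBCOR and -0.40 ± 0.101 in siNON cells), and in siBCOR cells ADAM9 rose (0.58 ± 0.163) while ADAM23 (-0.34 ± 0.0711) and ADAM12 (-0.39 ± 0.112) fell. The count of ADAM genes that rose in siBCOR cells was 2 without siBCOR dex 2 and 0 without siBCOR vehicle 2. The call of ADAM12 was lost without siBCOR dex 4 or siBCOR vehicle 1 (edgeR, adjusted p = 0.061 to 0.0736). After depletion 1 ADAM gene rose and 1 fell in vehicle (8.82% and 8.19% of all genes). In dexamethasone 1 rose and 2 fell (20.4% and 18.7% of all genes). With each library left out in turn, 0 to 2 fell in vehicle, and 0 to 2 rose and 1 to 3 fell in dexamethasone.

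BCOR peaks were sought within 50 kb of each start, by the peak's centre. They came in the submitters' 3 classes, 3055 dex-enriched, 267 vehicle-enriched and 8587 shared. Of the 8 genes, 4 had such a peak, beside 54.2% of all tested genes. ADAMTS3 had a shared peak centred 0.32 kb upstream of its start (hg19 chromosome 4, 73434677 to 73434995), and ADAMTS10 one 1.04 kb upstream (chromosome 19, 8676444 to 8676868). ADAMTS9 had 2 shared peaks inside the gene, 1.41 kb (chromosome 3, 64671788 to 64672122) and 37.3 kb downstream of its start. ADAMTS19 had a dex-enriched peak 46 kb inside the gene (chromosome 5, 128841780 to 128842114). Within 10 kb, 3 of the 8 had a peak (30.4% of tested genes), and within 100 kb 6 had (69.4%).

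ADAMTS1 had none within 100 kb. The nearest was a shared peak 129 kb downstream of its start (chromosome 21, 28088255 to 28088589), beyond the end of the gene and in no annotated gene of the table, and the same peak was the nearest to ADAMTS5, at 251 kb. The nearest peaks of ADAMTS6 and ADAMTS7 lay 81.5 kb (shared) and 62.5 kb (dex-enriched) upstream. ADAMTS8, by contrast, had dex-enriched peaks 1.18 kb and 5.9 kb upstream. Of the 11 other ADAMTS genes 9 had a peak within 50 kb, beside 54.2% of all tested genes, ADAMTS8 and the adjacent gene ADAMTS15 sharing the same 3.

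**Figure D5:**
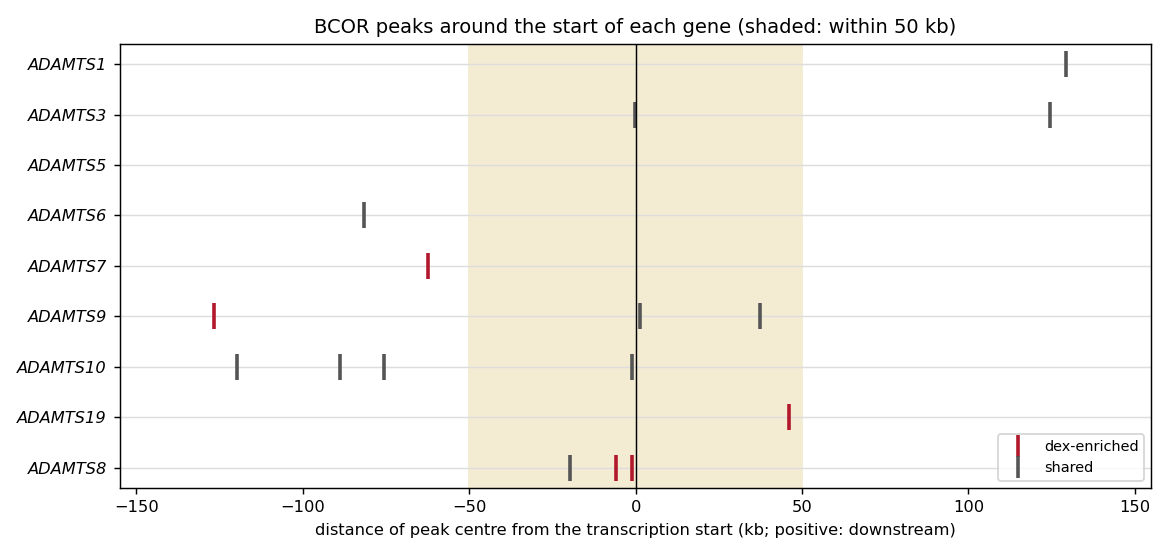
Position of BCOR peak centres (ticks) relative to the start of each gene (horizontal axis, kb, downstream positive), out to 150 kb, with the 50 kb window shaded; ADAMTS8 is added for comparison. ADAMTS3, ADAMTS9, ADAMTS10 and ADAMTS19 have ticks in the window, and the only tick for ADAMTS1 is at 129 kb.

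The neighbourhood of ADAMTS1 was sparse in reads. Of 6 other symbols that start within 1 Mb, only APP, the amyloid precursor gene 675 kb away, was tested. APP had 681.3 to 762.7 CPM in siBCOR dex and 752.2 to 842.7 CPM in siBCOR vehicle libraries, and 755.2 to 822.2 CPM in siNON dex and 746.5 to 837.1 CPM in siNON vehicle libraries. Its log2 fold change with hormone was -0.15 ± 0.0543 in siBCOR cells (edgeR, adjusted p = 0.0523) and -0.00 ± 0.0543 in siNON cells (adjusted p = 0.98), and neither was called. In dexamethasone it was lower in siBCOR than in siNON cells (-0.15 ± 0.0543, adjusted p = 0.0413), with overlapping libraries, and the call was lost (adjusted p = 0.0514 to 0.116) without any 1 of siBCOR dex 1, 3 and 4, siBCOR vehicle 4 and siNON dex 1 to 3.

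Across the 16 libraries, the 5 genes with at least 50 reads on average whose log2 level was most like that of ADAMTS1 by Pearson's r were POU3F2 (0.994), HOXA10 (0.992), the readthrough transcript HOXA10-HOXA9 (0.992), RGMB (0.992) and ZNF608 (0.992). HOXA10 and HOXA10-HOXA9 share reads. The likeness rests mostly on the difference between the groups: after the group means were taken out, r was 0.876 for RGMB, 0.575 for POU3F2, 0.469 for HOXA10-HOXA9, 0.0209 for ZNF608 and -0.421 for HOXA10. By Spearman's rho the top 5 shared 1 gene with these. RGMB had 28.2 to 32.5 CPM in siBCOR dex and 73.2 to 75.2 CPM in siBCOR vehicle libraries, and 22.9 to 27.2 CPM in siNON dex and 52.6 to 67.8 CPM in siNON vehicle libraries, the same order of groups as ADAMTS1. Within the family, r with ADAMTS1 was -0.971 for ADAMTS9, -0.986 for ADAMTS8 and 0.846 for ADAMTS3, as a description of libraries that share their groups. After the group means were taken out, r had the opposite sign for all 3, at 0.741 for ADAMTS9, 0.448 for ADAMTS8 and -0.219 for ADAMTS3.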

How the data were processed

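Poly(A) RNA was measured in 16 libraries of 4 groups and BCOR binding in 4 ChIP-seq libraries, in HEK293-GR cells. The deposited table holds read counts per exon for 65572 RefSeq transcripts in hg19, which per the file headers were made with HOMER without adjustment for depth. The submitters' processing notes also name Trimmomatic, TopHat2 and FastQC, with HOMER 4.10.3, Bowtie 0.12.9 and bedtools. Peaks were deposited in 3 classes, and their deposited score is 0 throughout and was not used. Counting ignored strand, so overlapping genes share reads. The transcript with the most reads stood for each symbol. Header totals ran from 19377735 to 29452567 reads, and the 134 transcripts without a gene name (0.0664% of counts) were left out.

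Library sizes were adjusted with TMM factors, and counts were filtered with edgeR's default and fitted with 4 group means and robust quasi-likelihood F tests (edgeR 4.0.16, limma 3.58.1, R 4.3.3), two-sided, with the Benjamini-Hochberg adjustment over 16432 genes and a threshold of 0.05. CPM are counts scaled to effective library size, given as mean ± SD with n = 4, and log2 fold changes as ± SE. In a test on simulated data for dexamethasone against vehicle in siNON cells, over 16432 genes, 198 of 200 genes changed by 1 on the log2 scale were recovered, with 12 false calls. The changed genes were drawn from those with at least 50 reads per library on average. Simulated counts were drawn independently for each library. Deviations such as those of siNON dex 4 and siNON vehicle 3 were therefore absent, and false calls under them were not tested. The recovery of smaller changes, or of genes with fewer reads such as ADAMTS6 and ADAMTS10, was not tested. Tables were handled with Python 3.11.15 and pandas 2.3.3. Alternatives were DESeq2 1.42.0, its size factors, no filter, a replicate block, the longest transcript, only the 2 groups compared and each library left out. A fit without siNON dex 4 and siNON vehicle 3 and one without robust spread were added after the data were seen.

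The members and the 7 gene lists (other ADAMTS, ADAMTS-like, substrates, inhibitors, processing and modification, matrix metalloproteinases, ADAM proteases) were chosen with earlier results of these data known. The text names the members, BCOR, the 5 genes most like ADAMTS1 and, from each list, up to 4 called genes with the smallest adjusted p in a comparison, together with genes of a peak or neighbourhood. The 4 ADAMTS8 libraries of each group, and the genes VCAN and APP, are given in more detail by choice after their values were seen. The labels call the replicates biological. The series text names 3 expression replicates, while 4 are labelled and all were used. Whether the numbers pair the samples was checked by the correlation of deviations from group means. This correlation was -0.526 to 0.502 over 24 same-numbered pairs and -0.643 to 0.654 over 72 differently numbered pairs. The same-numbered pairs did not stand out, so the numbers were not taken to pair the samples. With ranges this wide the check cannot exclude a pairing.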

Additional observations from a re-analysis of the deposited data

Results flagged for a closer look

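In groups of 4 libraries, a library was picked out where its gap to the nearest other, divided by the group's range, exceeded Dixon's critical value. Of 28 groups of the 7 tested members, 2 were, while chance gives about 1 in 20. ADAMTS6 in siBCOR vehicle replicate 2 stood at 0.964 CPM, below the other 3 libraries at 1.76 to 1.88 CPM, with a gap of 0.873 of the range. ADAMTS19 in siNON vehicle replicate 4 stood at 9.44 CPM, below the other 3 at 11.6 to 11.7 CPM, with a gap of 0.967 of the range. No cause was tested for either.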

How the results depend on the processing

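Of 833 fold changes of members under the alternatives, 771 kept their direction and side of the threshold, 34 lost a call, 2 gained one and 26 changed sign, all 26 with a library left out and none called with or without it. With each library left out in turn, ADAMTS7 ranged from -0.27 to 0.0072 with hormone in siBCOR cells, -0.0752 to 0.20 in siNON cells, -0.0165 to 0.26 with depletion in vehicle and -0.20 to 0.0771 in dexamethasone. ADAMTS6 ranged from -0.0269 to 0.46 with depletion in vehicle, and in dexamethasone ADAMTS3 from -0.019 to 0.0961 and ADAMTS10 from -0.11 to 0.087. The difference in hormone response ranged from -0.0306 to 0.0936 for ADAMTS1, -0.15 to 0.0446 for ADAMTS3 and -0.10 to 0.0194 for ADAMTS9. The calls lost were those of ADAMTS6 and ADAMTS19 in the cases given above, also with only the 2 groups compared and without siNON dex 4 and siNON vehicle 3. In each of those 2 settings, 2 members in place of 4 were called with hormone in siNON cells. Genes called with depletion in vehicle numbered 2795, and 1512 with only the 2 groups compared. The 17 genes called for a difference in hormone response became 81 by DESeq2, 4 with its size factors, 6 without the filter and 1771 without both libraries. With each library left out in turn, the genes called numbered 2876 to 4508 with hormone in siBCOR cells, 2522 to 4022 in siNON cells, 1803 to 3463 with depletion in vehicle, 4168 to 8167 in dexamethasone and 2 to 2429 for the difference. Members called were then 2 in each case with hormone in siBCOR cells, 2 to 5 in siNON cells, 1 with depletion in vehicle, 1 to 3 in dexamethasone and 0 for the difference. The cause of these shifts was not tested.

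The replicate numbers were not taken to pair the samples, though the check could not exclude a pairing. With a replicate block 3 genes in place of 17 were called for the difference in hormone response, and among members the call of ADAMTS19 with hormone in siNON cells was lost (adjusted p = 0.0581, edgeR). DESeq2's size factors moved the median log2 fold change of all genes by -0.0334 to 0.0105. The share of ADAMTS1 in the family differed by less than the spread between replicates with the longest transcripts. Among the members, depth limits ADAMTS5, with 8 reads in all, and ADAMTS6 and ADAMTS10, with under 60 reads in every library.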
